A study of Mus musculus with 208 samples.

Results

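The response of the prefrontal cortex (PFC) to lipopolysaccharide (LPS) in adult mice exposed to morphine around birth was taken from the comparison of MOR–LPS with MOR–SAL. Of 208 RNA-seq libraries in the series, 48 were from PFC. The comparison used the PFC libraries whose total count was at least 4833814.25, which is 50% of the median over the 48, and this left 14 MOR–LPS and 12 MOR–SAL libraries. Genes were described where their mean over these 26 libraries was at least 1 CPM (read counts scaled to the library total), which held for 14249 of 46403 listed genes.

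All animals were C57Bl/6NTac mice. MOR dams carried minipumps delivering 10 mg/kg of morphine per day and their pups were injected with 10 mg/kg of morphine from postnatal day 1 to 14, whereas SAL litters received saline by the same routes, and all pups were raised by drug-naive surrogate dams. Adults were then injected with LPS (MOR–LPS, SAL–LPS) or saline (MOR–SAL, SAL–SAL) and tissue was collected 2 h later. Each library was made from about 5000 NeuN+ nuclei of one animal, so that it holds nuclear RNA from a dissected punch sorted for neurons. The MOR–LPS group had 7 females and 7 males from 9 litters, and the MOR–SAL group had 7 females and 5 males from 6 litters. The saline-reared groups, 9 SAL–LPS and 10 SAL–SAL libraries from 6 litters each, entered the same model and served for the comparison of the responses. The exposure was given to whole litters and each litter held one sex by the labels of these libraries, so litter and perinatal exposure cannot be separated, although 6 morphine litters had animals in both the LPS and the saline arm.

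Total counts were 6243174 to 21988203 in MOR–LPS and 6911639 to 19768217 in MOR–SAL. Neuronal genes were abundant in every library, as the sort requires: Rbfox3, which encodes NeuN, lay at 882 to 3455 CPM in MOR–LPS and 1200 to 5345 CPM in MOR–SAL. The cortical label was only partly met. Slc17a7, the vesicular glutamate transporter of cortical excitatory neurons, ranged from 1.18 to 439 CPM in MOR–LPS and 0.578 to 510 CPM in MOR–SAL, with 3 libraries of each group under 20 CPM, and markers of striatal medium spiny neurons summed to 2163 to 8772 CPM and 1490 to 9667 CPM. Both MOR–SAL libraries 15-2 and 16-3, labelled female, held Y-linked RNA at 142 CPM, and their profiles differed by 5.17 times counting noise against a median of 160 times over 1128 pairs of libraries. A pair of SAL–SAL males, 1-3 and 3-0, was closer still at 3.61 times, and the next pair was at 27.9 times, so each of these 2 pairs may share material. Several genes that most brain tissue expresses, among them Gfap, P2ry12 and B2m, were listed at 0 in every PFC library and give no information.

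LPS is a component of the outer membrane of Gram-negative bacteria that binds Toll-like receptor 4, mainly on myeloid and endothelial cells. Cytokines and prostaglandins made there reach the brain, and the stress axis releases corticosterone, which enters neurons and glia and acts through the glucocorticoid receptor as a transcription factor. In the brain, genes of this early phase include NF-kB targets, interferon-stimulated genes and glucocorticoid targets such as Fkbp5, while neurons show their own activity through immediate early genes. NeuN marks the nuclei of neurons, and most cells that make cytokines in the brain lack it.

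Few genes passed the test. By edgeR's quasi-likelihood test with Benjamini-Hochberg adjustment over 21656 genes, 2 genes were higher in MOR–LPS (0.00924% of those tested, and 0.014% of the 14249 genes at 1 CPM or more) and 0 were lower (0%), while 2771 genes (12.8%) had an unadjusted p under 0.05. DESeq2 called 34 higher (0.157%) and 10 lower (0.0462%). With the litter added as a block, so that LPS and saline animals were compared within litters, 44 genes were higher (0.213% of 20699) and 2 lower (0.00966%), and these included both genes of the unblocked fit. Without a block, the fit of the morphine groups alone gave 11 higher and counts summed per litter gave 1. The correlation within litters estimated by limma-voom was 0.00195, and the deviations of same-litter animals had a median correlation of −0.0972. Without the 2 MOR–SAL libraries that go against their labelled sex the blocked fit called 25 higher, of which 23 were among the 44, and 7 lower. All 44 stayed above 0 with a median of 2.04, which is no separate check, since they were chosen as higher in a fit that holds the same other libraries. Without SAL–SAL library 9-4, which held much glial RNA and enters through the shared estimate of spread, the unblocked fit called 8 higher and 2 lower. Among the genes at 1 CPM or more, 936 (6.57%) had an unadjusted p under 0.05, of which 555 were higher (3.9%) and 381 lower (2.67%) in MOR–LPS.

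Both called genes, Apod and Ptgds, encode secreted carriers of small lipid molecules. Apod (apolipoprotein D; chr16:31296192-31314808 of mm10, minus strand) binds arachidonic acid and steroids and is made mostly by oligodendrocytes and astrocytes. Ptgds (chr2:25466709-25470046, minus strand) encodes prostaglandin D2 synthase, which makes the prostaglandin that promotes sleep and is abundant in oligodendrocytes, leptomeninges and choroid plexus. The RefSeq promoter windows of both genes, and of the myelin gene Mobp described with the glial markers, are shown because these genes had the 3 smallest adjusted p with the litter block. Each runs from 250 bases before to 50 bases after the annotated start in GRCm38.p6, at chr16:31314759-31315058 (minus strand) for Apod, chr2:25469700-25469999 (minus strand) for Ptgds and chr9:120149492-120149791 (plus strand) for Mobp. Capitals mark ACAAAG or its reverse complement CTTTGT, the core bound by Sox factors.
Apod: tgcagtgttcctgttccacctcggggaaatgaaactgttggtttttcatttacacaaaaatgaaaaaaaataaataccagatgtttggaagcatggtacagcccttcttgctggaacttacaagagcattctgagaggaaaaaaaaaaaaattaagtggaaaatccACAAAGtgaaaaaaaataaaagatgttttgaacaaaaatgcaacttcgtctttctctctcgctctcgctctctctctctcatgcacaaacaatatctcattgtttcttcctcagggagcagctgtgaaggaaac
Ptgds: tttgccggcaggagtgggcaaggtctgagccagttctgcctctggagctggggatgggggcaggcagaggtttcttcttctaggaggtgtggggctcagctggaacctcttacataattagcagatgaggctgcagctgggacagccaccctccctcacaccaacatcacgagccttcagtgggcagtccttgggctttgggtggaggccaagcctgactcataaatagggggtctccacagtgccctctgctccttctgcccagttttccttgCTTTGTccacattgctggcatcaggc
Mobp: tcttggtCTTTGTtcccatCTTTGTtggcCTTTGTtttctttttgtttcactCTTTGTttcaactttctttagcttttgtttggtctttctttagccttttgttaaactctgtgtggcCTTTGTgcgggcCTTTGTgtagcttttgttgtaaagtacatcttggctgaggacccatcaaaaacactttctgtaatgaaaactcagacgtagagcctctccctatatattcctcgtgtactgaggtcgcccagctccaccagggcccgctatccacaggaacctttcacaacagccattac
The motif occurred 1 time in the Apod window, 1 time in that of Ptgds and 6 times in that of Mobp. Of 32851 windows of the same length, 18.7% held at least 1 copy and 0.198% at least 3. This motif was chosen after the letters had been read, so its count is a description of these windows. The half-site of the glucocorticoid receptor, AGAACA or TGTTCT, was found 0 times in the 3 windows and in 19% of all windows.

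Apod had the smallest p. Its lowest, median and highest normalized values were 7.84, 41.8 and 260 CPM in MOR–LPS and 0, 4.85 and 18.4 CPM in MOR–SAL. All 14 MOR–LPS libraries were above the MOR–SAL median and 12 were above the highest MOR–SAL library, the overlap coming from the remaining MOR–LPS libraries. The difference was a log2 fold change (log2FC) of 3.88 ± 0.64 (SE; edgeR adjusted p = 0.00314, n = 14 and 12), and 4.21 ± 0.47 with the litter block (adjusted p = 1.34e-07). By labelled sex it was 4.01 ± 0.86 in females and 3.77 ± 0.98 in males. The MOR–SAL females include libraries 15-2 and 16-3, which hold Y-linked RNA. Apod stayed called without each of the 26 morphine libraries in turn, at 3.58 to 4.21, but not without litter 14 (3.53, adjusted p = 0.0506) or litter 15 (3.46, adjusted p = 0.227). Without the libraries under 20 CPM of Slc17a7, and in either labelled sex fitted alone, 0 genes were called higher, so both Apod and Ptgds lost their call there.

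Ptgds showed a broader overlap. It reached 20.7, 149 and 1401 CPM (lowest, median, highest) in MOR–LPS against 12.8, 26.1 and 143.5 CPM in MOR–SAL. Of the MOR–LPS libraries 13 were above the MOR–SAL median and 7 above its highest library. Its log2FC was 2.703 ± 0.505 (adjusted p = 0.0187) and 3.11 ± 0.39 with the litter block (adjusted p = 3.19e-06). This call was less firm than that of Apod: leaving out 1 library kept it in 17 of 26 cases, and it was lost without MOR–LPS library 14-4 (2.11, adjusted p = 0.1196) or 15-3 (2.55, adjusted p = 0.0527) and without any of 7 MOR–SAL libraries (15-0, 15-2, 15-4, 16-1, 16-3, 17-4 and 6-1).

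**Figure D1:**
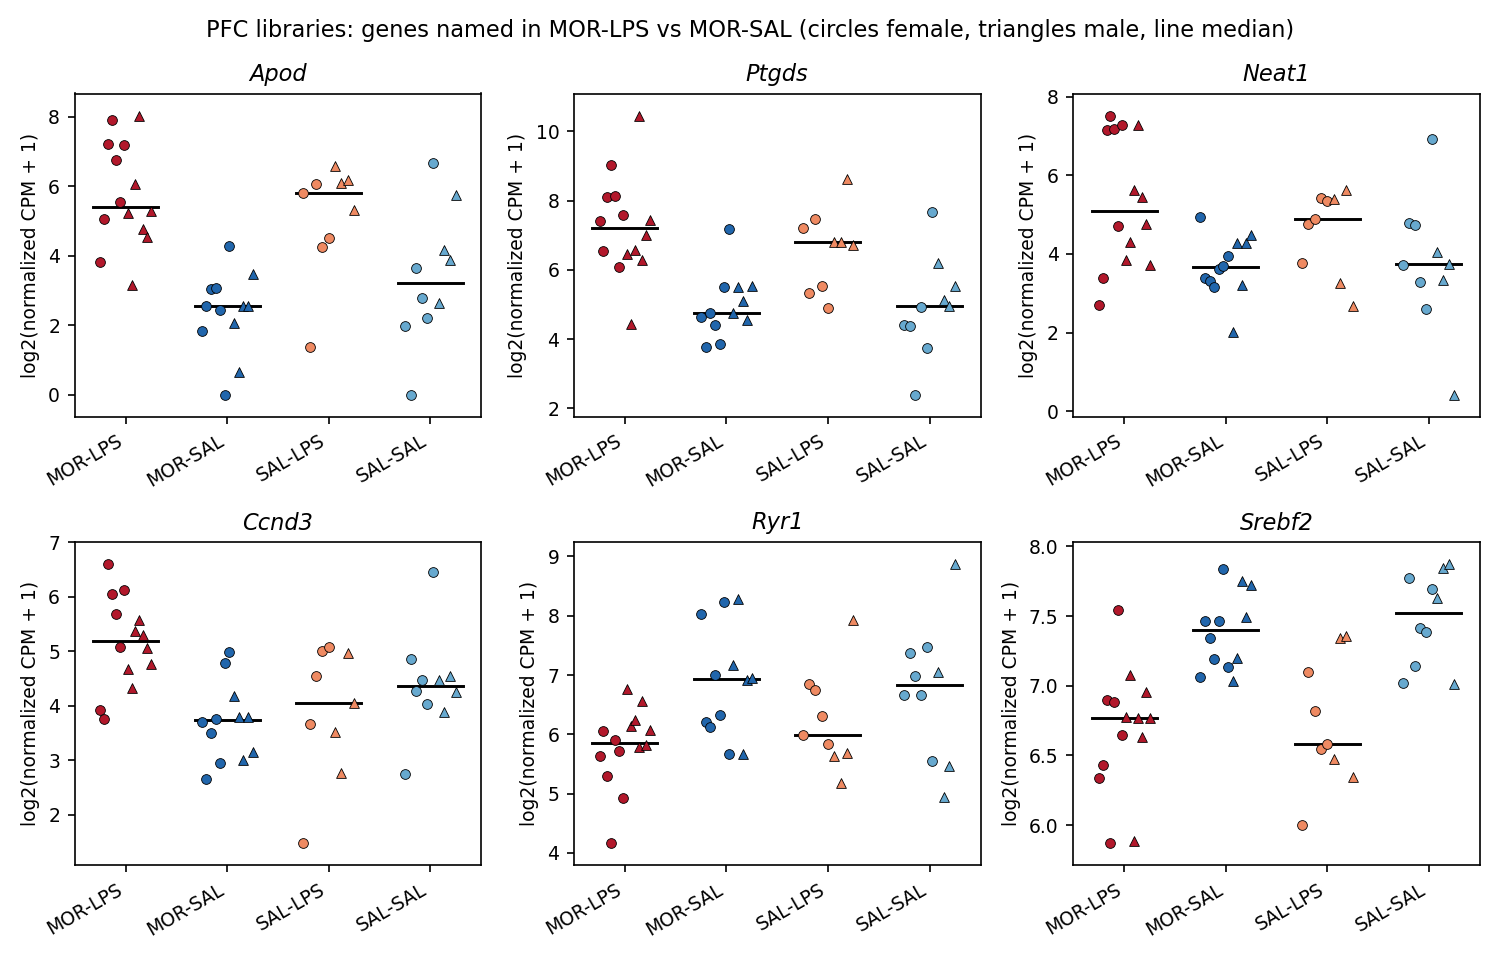
Normalized values of Apod, Ptgds, Neat1, Ccnd3, Ryr1 and Srebf2 in each kept PFC library as log2(normalized CPM + 1), by group; circles are females, triangles are males and the line is the group median. Apod is above the highest MOR–SAL library in 12 of 14 MOR–LPS libraries, and Srebf2 is under the lowest MOR–SAL library in 12 of 14.

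Other genes with the smallest p did not pass the adjusted threshold in the unblocked fit of all kept libraries. Without SAL–SAL library 9-4 Neat1 (adjusted p = 0.0428), Msr1 (0.0438) and Ccnd3 (0.0445) passed it, and without litter 12 Neat1 (0.0303) and Ccnd3 (0.0340) did, whereas with counts summed per litter they were at 0.543 to 0.548. Msr1 (scavenger receptor A of macrophages; chr8:39581685-39642673) had 0 counts in all 12 MOR–SAL libraries and 346 counts in MOR–LPS, of which 5 of 14 libraries were at 0 and the highest held 6.96 CPM. Taken over the pooled counts, with 3 counts as the floor, this is at least 94.7-fold higher, a bound that leaves out the spread between animals. The edgeR adjusted p of Msr1 was 0.0846, 0.0372 with the litter block, and 0.0751 with the block and without the 2 libraries that go against their labelled sex. Neat1, the long noncoding RNA that forms nuclear paraspeckles (chr19:5824708-5845478), lay at 5.51, 34.2 and 181 CPM in MOR–LPS and 3.01, 11.6 and 29.9 CPM in MOR–SAL (2.28 ± 0.51, adjusted p = 0.0985). With the litter block its log2FC was 2.91 ± 0.40 (adjusted p = 8.27e-06). Ccnd3 (cyclin D3; chr17:47505051-47599691) overlapped less, at 12.5, 35.7 and 95.9 CPM against 5.31, 12.3 and 30.7 CPM, so that all 14 MOR–LPS libraries exceeded the MOR–SAL median and 9 its highest library. Its log2FC was 1.61 ± 0.36 (adjusted p = 0.0985) and 2.05 ± 0.30 with the block (adjusted p = 4.64e-05). Neat1 overlaps 3 small predicted genes on its own strand and Ccnd3 overlaps Bysl on the opposite strand, and strand use in counting was not given in the sources used here, so reads could be divided between them.

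On the lower side, Ryr1, Kcnh4 and Srebf2 had the smallest p among named genes, apart from Kdm5d. Ryr1 (chr7:29003344-29125179), a calcium release channel of the endoplasmic reticulum, was at 16.9, 57.2 and 107 CPM in MOR–LPS and 49.7, 122 and 310 CPM in MOR–SAL. Every MOR–LPS library was under the MOR–SAL median and 4 were under its lowest library. The log2FC was −1.34 ± 0.32 (adjusted p = 0.0985), and −1.51 ± 0.32 with the litter block (adjusted p = 0.0166). Srebf2 (chr15:82147181-82205379), the transcription factor that turns on cholesterol synthesis and uptake, had a smaller fold but narrower groups, with 57.5, 108 and 185.5 CPM against 129.8, 168 and 227 CPM. Thus 12 of 14 MOR–LPS libraries lay under the lowest MOR–SAL library (−0.69 ± 0.17, adjusted p = 0.0985), and its value in saline-reared animals was close to that, −0.73 ± 0.20 (adjusted p = 0.151). Kcnh4 (chr11:100740376-100759942), a voltage-gated potassium channel, was at 20.6, 46.6 and 96.0 CPM against 35.8, 98.3 and 216 CPM (−1.07 ± 0.26). Hras, a small GTPase, was the other gene lower with the block (−1.67 ± 0.40, adjusted p = 0.0497). Kdm5d is Y-linked and its −4.26 ± 0.97 rested on the 2 MOR–SAL libraries labelled female that hold Y-linked RNA: without them it was 0.31 (adjusted p = 0.922).

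The genes called with the litter block were read after their values were known. Of those described here, Mertk, Dock1, Abca1, Adipor2 and C4b, were also called without the 2 libraries that go against their labelled sex, whereas the receptors that follow were not. Mertk, a receptor for engulfment of dying cells, was higher by 2.52 ± 0.39 (adjusted p = 0.000105) and Dock1, which acts in the same engulfment machinery, by 2.11 (adjusted p = 0.000597). Abca1, the cholesterol exporter, was higher by 1.92 (adjusted p = 0.00573), and Adipor2, an adiponectin receptor, by 1.57 (adjusted p = 0.0048). C4b, a complement component, was at 2.31, 16.7 and 140 CPM in MOR–LPS against 0, 0.297 and 22.5 CPM in MOR–SAL (5.03 ± 0.72 with the block, adjusted p = 3e-05). Cytokine receptors were among the others. Osmr, the oncostatin M receptor (chr15:6813577-6874969), was above the highest MOR–SAL library in 7 MOR–LPS libraries (6.98 ± 1.65, adjusted p = 0.0497, and 0.148 without those libraries), and Il12rb1, a subunit of the interleukin-12 receptor, had a log2FC of 5.34 (adjusted p = 0.0443, and 0.131 without them). Of the 44 genes, 4 belonged to a glial marker list, 3 to a functional list and 2 were predicted genes. The 4 were 3 of the 10 listed oligodendrocyte markers and 1 of the 10 listed astrocyte markers, where 0.213% of all genes tested were called higher. The marker lists are short and do not hold every gene made by glia: Apod and Ptgds are not on them.

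Glial markers had positive values beside these genes, although 0 of the markers were called by the unblocked edgeR fit of all kept libraries. Without SAL–SAL library 9-4 that fit called the oligodendrocyte marker Mobp (2.20 ± 0.40, adjusted p = 0.00759). All 10 oligodendrocyte markers at 1 CPM or more had a log2FC above 0 and 9 had an unadjusted p under 0.05 (90% against 6.57% of all genes), with a median of 1.75 against 0.03 over all 14249 genes. Of these, Mobp and Mal were among those called with the litter block. Mobp, a myelin protein (chr9:120149707-120181484), was at 30.1, 72.0 and 497 CPM against 21.9, 30.4 and 51.4 CPM (2.26 with the block, adjusted p = 3.19e-06). The summed oligodendrocyte markers were 245, 474 and 4234 CPM in MOR–LPS and 194, 344 and 439 CPM in MOR–SAL, so that 7 MOR–LPS libraries (females 15-1, 15-3, 16-4, 18-1 and 7-1, males 13-2 and 14-4) were above every MOR–SAL library and the other 7 were within its range.

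Astrocyte markers had 9 of 9 values above 0, 6 of them with an unadjusted p under 0.05 (66.7% against 6.57% of all genes), and a median of 1.58. Slc1a3, the astrocytic glutamate transporter GLAST, was called with the litter block (1.69, adjusted p = 0.0142, and 0.0516 without the 2 libraries that go against their labelled sex) at 7.15, 34.2 and 162 CPM against 2.07, 16.9 and 34.1 CPM. Microglial markers had 9 of 10 above 0, 5 with an unadjusted p under 0.05 (50% against 6.57%), and a median of 1.59, and their sum was above the highest MOR–SAL library in 6 MOR–LPS libraries. For oligodendrocyte precursors 5 of 5 markers were above 0 with a median of 1.66. Pan-neuronal markers summed to 5964, 8472 and 13423 CPM against 5698, 9398 and 14295 CPM. Of 8 such markers 4 had a value above 0 (median 0.00), and 0 were higher and 1 lower at an unadjusted p under 0.05 (12.5% against 6.57%). Rbfox3, the sorted marker, had −0.63 ± 0.29 (adjusted p = 0.326). In bulk libraries more nuclei of a type cannot be told from more RNA per nucleus.

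**Figure D2:**
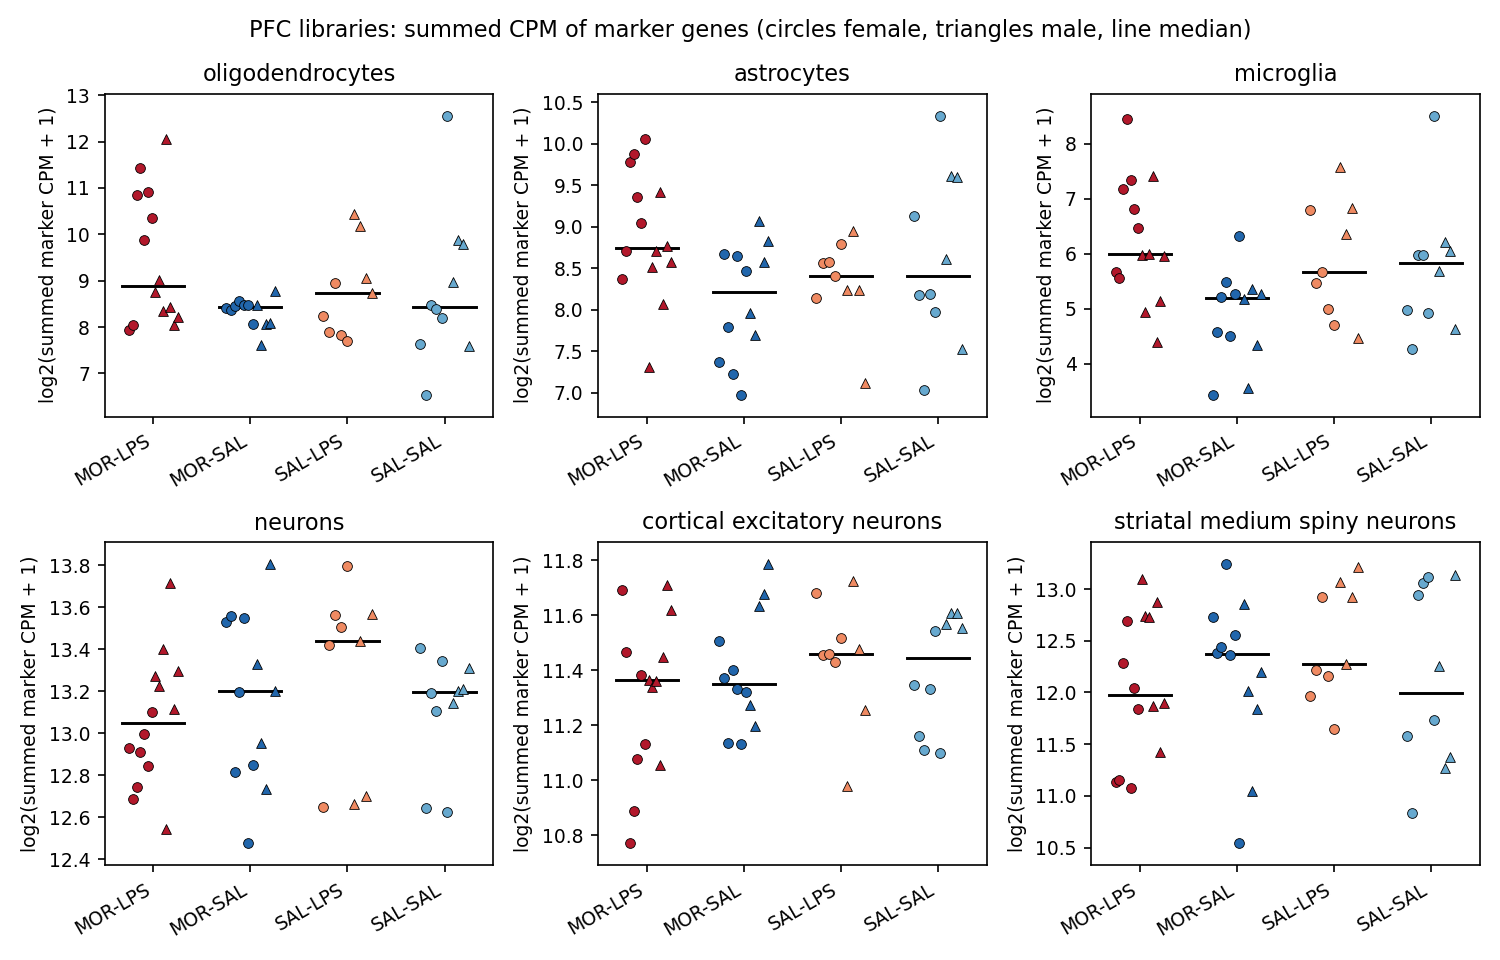
Summed CPM of 6 marker lists in each kept PFC library as log2(summed CPM + 1), by group; circles are females, triangles are males and the line is the group median. Oligodendrocyte markers exceed the highest MOR–SAL library in 7 of 14 MOR–LPS libraries. The pan-neuronal and medium spiny neuron sums are within the MOR–SAL range in all 14, and the cortical excitatory sum is under the lowest MOR–SAL library in 5.

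The oligodendrocyte sum was also added as a term of the model. The median of the oligodendrocyte markers, −0.04, was then set by the term, which is made of these markers. That of the astrocyte markers was 0.60 and that of the 44 genes, some of which are in the sum, was 0.81, with 2 of the 44 called. The sum reached higher in MOR–LPS than in MOR–SAL, so the term also takes up part of the group difference. With that term 6 genes were higher and 15 lower. Apod had a log2FC of 2.57 (adjusted p = 0.0484), Ptgds 1.57 (adjusted p = 0.0688), Neat1 1.32 (adjusted p = 0.182), Ccnd3 1.23 (adjusted p = 0.0986) and Srebf2 −0.79 (adjusted p = 0.0484). The part of glial RNA in the results was not tested.

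Genes listed for the glucocorticoid response, which include the receptors Nr3c1 and Nr3c2, had the highest share of small p among the functional lists. Of 25 genes at 1 CPM or more, 21 had a log2FC above 0, 10 were higher and 0 lower at an unadjusted p under 0.05, which is 40% of the list against 6.57% of all genes, and the median was 0.71. The list's genes did not pass the adjusted threshold, and 1 of them, Hif3a, was called with the litter block. Fkbp5, a co-chaperone that limits glucocorticoid receptor binding, was at 51.0, 106 and 166 CPM in MOR–LPS against 24.7, 57.3 and 123 CPM in MOR–SAL, with 13 of 14 above the MOR–SAL median. Its log2FC was 0.81 ± 0.24 (adjusted p = 0.103), and 0.74 with the oligodendrocyte term. Hif3a, a member of the hypoxia-inducible factor family, was at 1.61, 18.6 and 79.6 CPM against 0.195, 5.26 and 12.5 CPM, and 10 MOR–LPS libraries were above the highest MOR–SAL library (1.97 ± 0.62, adjusted p = 0.119, and 2.20 ± 0.44 with the block, adjusted p = 0.0099).

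Other members spread widely. Arrdc2 had a log2FC of 1.60 ± 0.58, Cdkn1a, a cell cycle inhibitor, 1.31 ± 0.63, Mt1, a metallothionein, 1.02 ± 0.42, and Errfi1, an inhibitor of the EGF receptor, 0.91 ± 0.43. Tsc22d3, known as GILZ, had 1.03 ± 0.51, and 0.00 with the oligodendrocyte term. Targets that are often used as readouts of the hormone were close to 0: Per1 at −0.14 ± 0.19 and Sgk1 at 0.07 ± 0.25. The receptor gene itself, Nr3c1, was at −0.02 ± 0.21. The list's median was 0.59 in labelled females, 0.64 in labelled males and 0.38 with the oligodendrocyte term.

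Neuronal immediate early genes, which neurons transcribe within minutes of strong activity, did not pass the adjusted threshold either. Of 26 genes 12 were above 0, 0 were higher and 3 lower at an unadjusted p under 0.05 (11.5% of the list against 6.57% of all genes), and the median was −0.03. It was 0.12 in labelled females, −0.54 in labelled males and −0.31 with the litter block, and whether the sexes differed over the list was not tested. Arc, which acts at the postsynapse, was at 9.70, 65.4 and 118.5 CPM in MOR–LPS against 49.3, 102 and 185 CPM in MOR–SAL (−0.82 ± 0.30, adjusted p = 0.178). Egr3 had a log2FC of −0.88 ± 0.40 and Nr4a3 of −0.79 ± 0.37. Fos (0.19 ± 0.59), Egr1 (−0.17 ± 0.29) and Npas4 (−0.58 ± 0.33) had an unadjusted p above 0.05. In saline-reared animals the list had a median of −0.35 and 4 genes lower at that p (2.49% of all genes were), where Arc was at −1.14 ± 0.36 (adjusted p = 0.17).

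**Figure D3:**
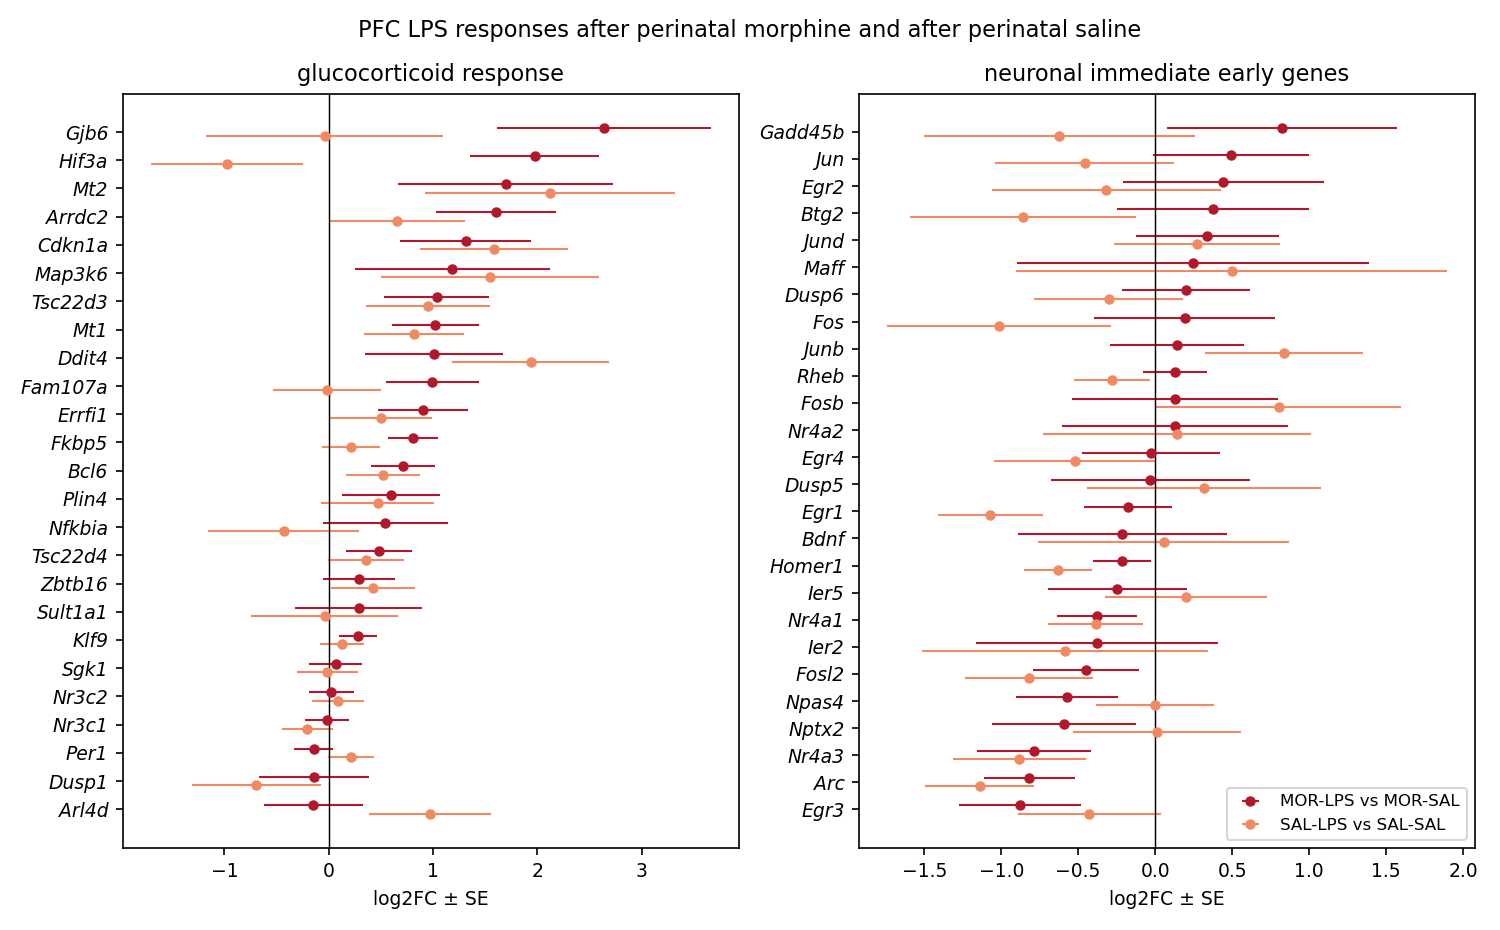
Log2FC with its SE for genes of the glucocorticoid response and neuronal immediate early genes in the PFC, for MOR–LPS against MOR–SAL and for SAL–LPS against SAL–SAL. Fkbp5 is at 0.81 and Hif3a at 1.97 after morphine, and Arc is under 0 in both comparisons, at −0.82 and −1.14.

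The classical inflammatory genes were sparse. Of 44 genes listed for NF-kB and the acute inflammatory response, pathway components included, 26 reached 1 CPM, 19 of these were above 0 and 3 were higher at an unadjusted p under 0.05 (11.5% of the list against 6.57% of all genes; median 0.24). These 3 were Saa3, an acute phase protein (3.30 ± 1.14), Icam1, an adhesion molecule (2.82 ± 1.22), and Cebpd, a transcription factor of the acute phase (2.28 ± 1.11). The feedback inhibitor Nfkbia was at 0.54 ± 0.60, Socs3 at 2.01 ± 1.34 and Ptgs2, the inducible cyclooxygenase, at 0.14 ± 1.17. Tnf, which was under 1 CPM, had 134 counts in MOR–LPS, with 9 of 14 libraries at 0, and 0 counts in MOR–SAL. Over the pooled counts this is at least 36.7-fold higher, a bound that covers counting error and leaves out the spread between animals. Of 36 interferon-stimulated genes 16 reached 1 CPM and 14 of them were above 0 (median 1.10), but 1, Stat2, had an unadjusted p under 0.05 (6.25% against 6.57%). Among 20 cytokine receptors and signal transducers 14 were above 0 and 3 were higher at that p (15% against 6.57%; median 0.57), including the receptors Tnfrsf1a (4.41 ± 1.30, adjusted p = 0.103), Ifngr1 (1.43 ± 0.66) and Osmr.

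Receptor, chromatin and respiratory chain genes were also counted. Of 15 ionotropic glutamate receptor genes 1 was higher and 3 were lower at an unadjusted p under 0.05 (26.7% against 6.57%; median −0.19): the AMPA receptor subunit Gria2 at 0.49 ± 0.16 (adjusted p = 0.14) and the kainate receptor subunits Grik3 at −0.66, Grik4 at −0.61 and Grik5 at −0.44. None of the 13 GABA-A receptor genes and none of the 8 opioid receptor and peptide genes had such a p (medians −0.05 and 0.00), and the list of 28 histone acetylation genes had 0 (median −0.10). Of 52 genes of oxidative phosphorylation 1 was lower (1.92%), with a median of 0.01.

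**Figure D4:**
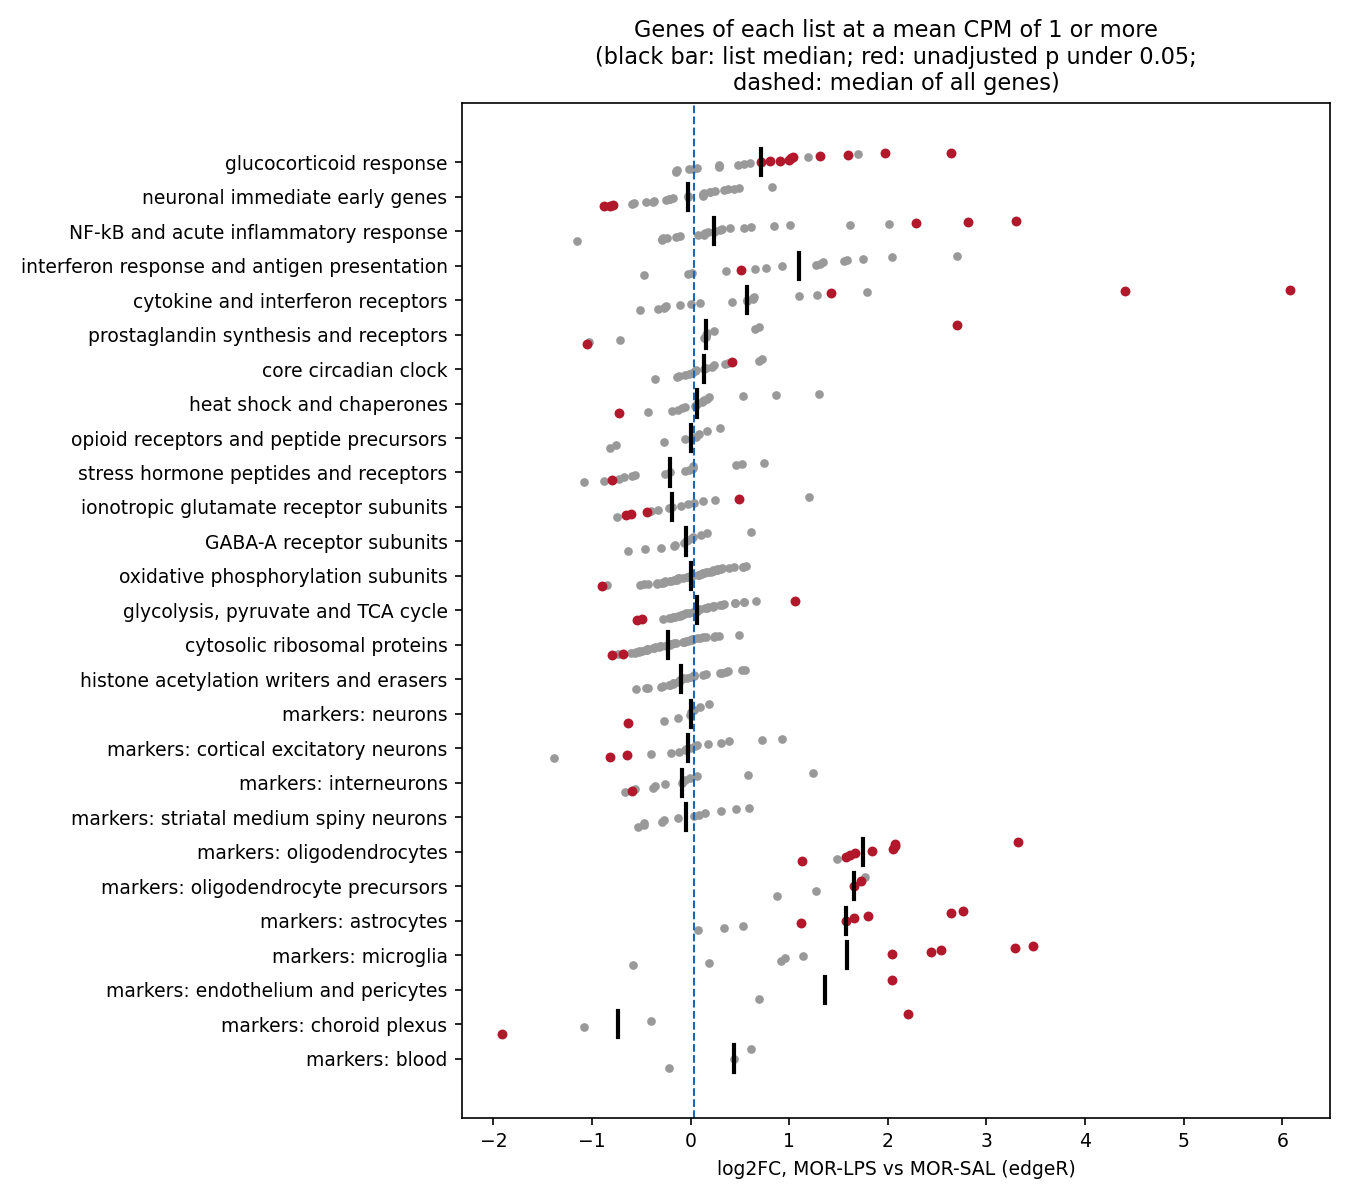
Log2FC of MOR–LPS against MOR–SAL for each list gene at 1 CPM or more; points in red have an unadjusted p under 0.05, the black bar is the list median and the dashed line is the median of all genes (0.03). Oligodendrocyte, astrocyte and microglial markers lie to the right (medians 1.75, 1.58 and 1.59), and glucocorticoid response genes have a median of 0.71.

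The saline-reared animals gave the same comparison in other libraries. SAL–LPS against SAL–SAL called 0 genes by edgeR (0%; 2734 genes, 12.6%, had an unadjusted p under 0.05) and 61 by DESeq2 (0.282%). Apod was there at medians of 54.5 CPM in SAL–LPS and 8.70 CPM in SAL–SAL, with a log2FC of 1.20 ± 0.66 (adjusted p = 0.476), and Ptgds had 1.39 ± 0.55 (adjusted p = 0.24). Of the 44 genes, 18 were above 0 with a median of −0.15, and the oligodendrocyte markers had a median of −0.89. These values rested on 1 library: SAL–SAL female 9-4 had an oligodendrocyte sum of 6015 CPM, above all MOR–LPS libraries. Without it 35 of the 44 genes were above 0 with a median of 0.58, and the oligodendrocyte markers had a median of 0.09. Apod then had 2.03 ± 0.66 (adjusted p = 0.189) and Ptgds 2.13 ± 0.53 (adjusted p = 0.153), with 0 genes called by edgeR (2654 with an unadjusted p under 0.05).

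Whether the responses differed between exposures was tested by the interaction. It called 283 genes (1.31%), 210 higher (0.97%) and 73 lower (0.337%) after morphine, but 254 of them (89.8%) were under 1 CPM, and 29 genes (0.204%) were at 1 CPM or more. Of the 283, 26 were among the 36 (0.166%) that DESeq2 called. Without SAL–SAL library 9-4 edgeR called 0 (2083 with an unadjusted p under 0.05). When only genes at 1 CPM were tested, 0 were called (713 with an unadjusted p under 0.05), and leaving out 1 of 12 libraries, 3 MOR–LPS (18-1, 7-1, 14-4) and 9 MOR–SAL, gave 0 as well. The genes with the smallest p included the myelin gene Mag (3.35 ± 0.81), the microglial genes Itgam (7.36 ± 1.65) and Siglech (8.67 ± 2.07), Olfml1 (7.29 ± 1.53) and Pstpip2 (3.19 ± 0.77), each with an adjusted p of 0.0443, and 0.0548 to 0.0982 without library 9-4. Without it their values were 2.37 for Mag, 6.17 for Itgam, 7.71 for Siglech, 6.37 for Olfml1 and 2.59 for Pstpip2. Siglech had 0 counts in all 9 SAL–LPS libraries, so its value is a fitted one and no bound. Ccnd3 was also called (2.04 ± 0.54, adjusted p = 0.0459, and 1.66 ± 0.52, adjusted p = 0.112 without that library). For Apod and Ptgds the difference between the responses was 2.68 ± 0.89 (adjusted p = 0.116) and 1.31 ± 0.72 (adjusted p = 0.533), or 1.84 ± 0.84 and 0.53 ± 0.67 without library 9-4.

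Males and females after morphine, as labelled, were compared by their difference in response. MOR–SAL libraries 15-2 and 16-3, which hold Y-linked RNA, were among the females for every gene given here. By edgeR 0 genes were called (0%) and 1591 (7.35%) had an unadjusted p under 0.05. The smallest p belonged to Kdm5d and Uty, which follow the 2 libraries that hold Y-linked RNA against their label, and to Serpina3n, Kctd14 and Cd244. Serpina3n, an acute phase protease inhibitor of reactive astrocytes, had medians of 57.2 CPM in MOR–LPS and 3.08 CPM in MOR–SAL females but 8.33 and 15.6 CPM in males (male minus female −4.07 ± 1.18, adjusted p = 0.306). Nr4a3 had a log2FC of 0.08 in females and −1.70 in males (adjusted p of the difference 0.434).

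The genes called in PFC with the litter block were then read in the same comparison in striatum and hippocampus (hypothalamus was not analysed here), which share animals with the PFC: 11 of 18 MOR–LPS and 5 of 8 MOR–SAL animals in striatum, 11 of 15 and 8 of 11 in hippocampus. In striatum 43 of the 44 were above 0 and 15 were called higher (0.845% of all genes tested there were), with a median of 1.60. In hippocampus 44 of 44 were above 0 and 4 were called (0.0317% of all genes), with a median of 1.11, and these were Msr1, Neat1, Pnpla7 and Rab31. Msr1 had an adjusted p of 0.0352 in hippocampus and 0.00262 in striatum. Apod was at 1.53 ± 0.63 in hippocampus (adjusted p = 0.221) and 3.27 ± 0.87 in striatum (adjusted p = 0.0428), Ptgds at 2.10 (adjusted p = 0.0647) and 3.05 (adjusted p = 0.0481).

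Genes of the glucocorticoid response had medians of 0.21 in hippocampus and 0.87 in striatum, and Fkbp5 (0.84, adjusted p = 0.0259) and Hif3a (2.38, adjusted p = 0.0185) were called in striatum. Ryr1 was lower there too (−1.64, adjusted p = 0.0185; 0.542% of all genes were called lower) and had −0.46 in hippocampus. Oligodendrocyte markers had medians of 0.74 and 1.14 and astrocyte markers of 0.84 and 2.02 in hippocampus and striatum, against 0.01 and 0.04 over all genes at 1 CPM or more in PFC. The part of glial RNA in these regions was not tested.

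**Figure D5:**
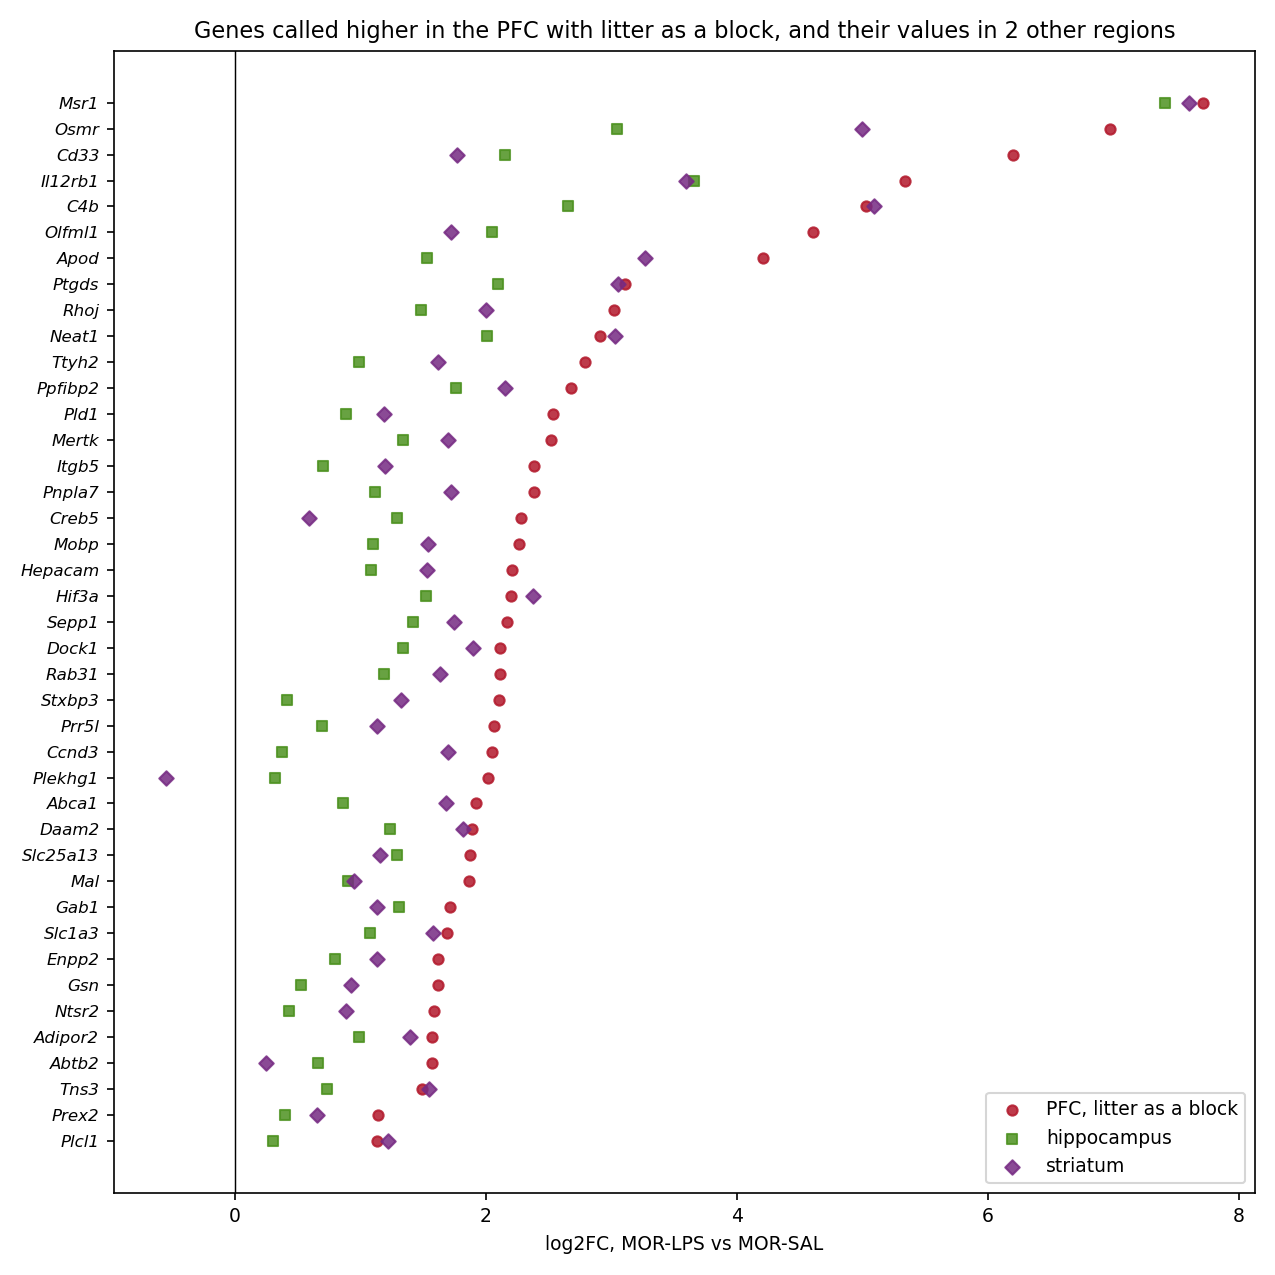
Log2FC of MOR–LPS against MOR–SAL for named genes called higher in PFC with the litter block, in PFC, hippocampus and striatum, predicted genes left out. In hippocampus all 44 called genes, those not drawn included, are above 0, and in striatum 43 are.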

How the data were processed

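PFC nuclear RNA-seq libraries were analysed from the gene counts deposited by the authors. Per the labels and methods, reads (150 bp, paired) were trimmed with Trim Galore 0.6.7, aligned to mm10 and counted per gene with STAR 2.7.10a, with HTSeq 0.12.4 on GENCODE vM25 as a check of the counts, and no scaling was applied to these counts. Strand use was not given in the sources used here. The hypothalamus, the authors' CPM tables and their comparisons were not used here.

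Of 48 PFC libraries 3 were dropped for a total under 50% of the median of 9667628.5 (MOR–LPS 6-4 and 8-1, SAL–LPS 4-4), which left totals of 4866542 to 21988203. Genes with a total above 10 (21656) were fitted with edgeR 4.0.16 (quasi-likelihood, TMM scaling) in R 4.3.3 with terms for the 4 groups and sex, and p-values were adjusted by Benjamini-Hochberg over all of them, with a threshold of 0.05. The SE is the log2FC divided by the square root of F. Normalized CPM are TMM scaled. The fit across genes was tested on simulated data first, for MOR–LPS against MOR–SAL. It called about as many unchanged genes as changed ones, the unchanged mostly under 1 CPM, and none where no gene was changed. Calls under 1 CPM are therefore less reliable than those above. DESeq2 and the bias-adjusted method called fewer unchanged genes, mostly at 1 CPM or more. The interaction and the litter block were not tested in this way. Floors (3 counts) cover counting error only, whereas the SE also rests on the fitted spread between libraries.

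Litter numbers pair 6 litters across the arms. Same-litter deviations correlated at −0.294 to 0.222 (median −0.0972) against a median of −0.00369 for other litters, with 1 of 6 litters best matched to itself. The litter of each animal came from the study's supplementary sample sheet and its number in the labels.

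Named genes were the called genes or the 5 with the smallest p in each direction, predicted genes left out, up to 4 per list, members of the glucocorticoid, immediate early and NF-kB lists, the 5 with the smallest p in the interaction and in the sex difference, and cell markers. Genes called with the block were added after their values were seen. The comparison, its members and the lists were chosen with earlier results of these data known. One gene is not reported here. Gene positions are from GENCODE M21 on mm10 and promoter windows from RefSeq on GRCm38.p6. Alternatives were DESeq2 1.42.0, limma 3.58.1, other scalings and filters, and models by sex, by litter and with marker terms. Each of 26 morphine libraries and 9 morphine litters was left out in turn, and SAL–SAL library 9-4, but not the other saline-reared libraries.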

Additional observations from a re-analysis of the deposited data

Results flagged for a closer look

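The interaction between perinatal exposure and LPS passed the test for 283 genes, with fitted values, morphine minus saline on the log2 scale, of 7.29 for Olfml1, 7.36 for Itgam, 3.35 for Mag, 8.67 for Siglech and 3.19 for Pstpip2. Siglech had 0 counts in all 9 SAL–LPS libraries, so its value depends on the fit and is neither a measured fold nor a bound. Without SAL–SAL library 9-4 the count was 0 by edgeR (2083 with an unadjusted p under 0.05), and the values were 6.37, 6.17, 2.37, 7.71 and 2.59 in the same order.

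Of 30 gene and group combinations of 4 to 10 libraries, 14 had a library far from the others. Chance gives about 1 in 20 for single groups chosen blind, a rate that does not apply to these genes, since they were chosen for small p and are not independent of each other. SAL–SAL library 9-4 accounted for 9 of them. It was at 100.2 CPM for Apod (next 52.2), 201.9 CPM for Ptgds (next 73.3), 121 CPM for Neat1 (next 26.7) and 86.4 CPM for Ccnd3 (next 27.9). The same library was at 45.8 CPM for Olfml1 (next 11.7), 11.3 CPM for Itgam (next 2.41), 206 CPM for Mag (next 32.7), 45.6 CPM for Siglech (next 5.35) and 62.5 CPM for Pstpip2 (next 16.4). In SAL–LPS, library 11-0 was at 397 CPM for Ptgds (next 175), 9-1 at 0.192 CPM for Msr1 (next 0), 3-3 at 243 CPM for Ryr1 (next 115) and 1-0 at 4.31 CPM for Olfml1 (next 0.608). SAL–SAL library 5-1 was at 465.9 CPM for Ryr1 (next 178). The MOR groups have more than 10 libraries each and were not searched in this way.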

How the results depend on the processing

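The number of genes higher in MOR–LPS than MOR–SAL, 2 in the edgeR fit, was 87 with the bias-adjusted quasi-likelihood method, 44 with the litter as replicate block, 34 with DESeq2, 25 with the replicate block and without the libraries against their labelled sex, 11 with only the morphine groups, 6 with a term for oligodendrocyte markers, 1 with counts summed per litter, 1 without the libraries against their labelled sex, 1 with near-identical libraries summed, and 0 in females alone (2281 with an unadjusted p under 0.05), in males alone (1555) and without libraries under 20 CPM of Slc17a7 (2152). The number lower, 0, was 14, 2, 10, 7, 1 and 15 in the first 6 of these and 1 each with all libraries kept, with limma-voom and its correlation within litters, and with a marker ratio term. Leaving out 1 morphine library, 1 morphine litter or SAL–SAL 9-4 gave 0 to 8 higher (8 without SAL–SAL 9-4, 0 without litter 14 or 15, 4 without litter 12, 1 without litter 6, 16 or 17 or any of 9 morphine libraries) and 0 to 2 lower (2 without SAL–SAL 9-4). Of the 46 genes called with the block, 12 were among the 44 of DESeq2 and 25 among the 101 of the bias-adjusted method. SAL–LPS against SAL–SAL gave 61 with DESeq2, 15 bias-adjusted, 4 without libraries under 20 CPM of Slc17a7, and 1 each with filterByExpr, with genes at 1 CPM tested, with limma-voom and with the marker ratio. The interaction, 283, gave 474 with no sex term, 97 with the oligodendrocyte term, 36 with DESeq2, 32 bias-adjusted, 1 without libraries under 20 CPM of Slc17a7, and 0 with filterByExpr, genes at 1 CPM, females, males, limma-voom, litter sums, without the libraries against their sex and with near-identical libraries summed (713 to 2398 with an unadjusted p under 0.05). The interaction gave 0 to 328 without 1 morphine library or SAL–SAL 9-4 (0 without SAL–SAL 9-4 or any of 12 morphine libraries, 132 without MOR–LPS 13-2). The other saline-reared libraries were not left out in turn. Kdm5d went to 0.31 without the libraries against their sex, and to 0.0928 with the block as well. Apod kept its call in 18 of 22 settings (2.57 to 4.21, adjusted p 9.14e-08 to 0.314) and Ptgds in 14 of 22 (1.57 to 3.11, adjusted p 3.19e-06 to 0.626), and Ptgds was lost without 5 of 9 litters. The settings on markers, sex labels, near-identical libraries, library 9-4 and the bias-adjusted method were chosen after seeing the data. The cause of these changes was not tested. Counts limit what can be said of genes under 1 CPM.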

Other observations

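Further lists were measured in the same comparison, where 6.57% of all genes had an unadjusted p under 0.05. Of 17 clock genes 12 had a log2FC above 0 and 1 (5.88%) was higher at that p (median 0.14). Of 17 heat shock and chaperone genes 11 were above 0 and 1 (5.88%) was lower (median 0.07). Stress and neuropeptide genes had 6 of 17 above 0, with 1 (5.88%) lower (median −0.21). Ribosomal protein genes had 11 of 44 above 0 and 2 lower (4.55%), with a median of −0.23, and −0.51 with the litter block. Of 11 prostaglandin pathway genes at 1 CPM or more 8 were above 0, 1 was higher and 1 lower (18.2%; median 0.15), and Ptgds was the member that passed the adjusted threshold. Glycolysis and citric acid cycle genes had 22 of 36 above 0, 1 higher and 2 lower (8.33%; median 0.06).

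Markers of other cells were few at this depth. Endothelial markers had 2 of 2 above 0 (median 1.37), and their sum exceeded the highest MOR–SAL library in 9 MOR–LPS libraries at 1.44, 14.9 and 28.8 CPM against 0, 5.48 and 11.3 CPM. Choroid plexus markers had 1 of 4 above 0 (median −0.74) and blood markers 2 of 3 (median 0.44). Cortical excitatory neuron markers had 7 of 16 above 0 (median −0.03), with 0 higher and 2 lower at an unadjusted p under 0.05 (12.5%). Their sum was under the lowest MOR–SAL library in 5 MOR–LPS libraries and above the highest in 0. Interneuron markers had 3 of 13 above 0 (median −0.09) with 1 lower at that p (7.69%), and striatal medium spiny neuron markers 6 of 12 (median −0.05) with 0.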
